A study of Mus musculus with 12 samples.

Results

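The nuclear receptors CAR (gene Nr1i3) and PXR (gene Nr1i2) were followed in mouse liver together with Cyp2b9, Cyp2b10, Cyp2b13, Por, Ces2a and Abcb1a. These 8 genes were chosen by symbol, as the receptors and the genes classically tied to them, and all 8 were found among the 41128 rows of the expression table, of which 23337 carried a symbol. Livers of germ-free (GF) C57BL/6 mice, raised without microbes, were compared with livers of conventionalized (CV) littermates. The CV mice had been moved at weaning on day 21 into cages with soiled bedding, from which microbes are taken up, and stayed there for 3 weeks. All mice were 6 weeks old, so the CV mice were germ-free until weaning, and the groups do not represent animals colonized from birth. The 4 groups of condition and labelled sex (GF male, GF female, CV male and CV female) held 3 mice each, with 1 stranded library of polyadenylated RNA from each mouse. Normalised reads below are gene read counts divided by a size factor for each library.

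CAR and PXR are ligand-responsive transcription factors of hepatocytes that sense drugs, steroids and bile acids. CAR is held in the cytoplasm until it is released to the nucleus, and both receptors bind DNA with the retinoid X receptor and raise the transcription of genes for oxidation, conjugation and export. Cyp2b10 is the classical CAR target of mouse liver, whereas Cyp2b9 and Cyp2b13 are best known as genes expressed more in females than in males, a pattern set by pituitary growth hormone.

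In GENCODE release M21 on build GRCm38, the Cyp2b genes lie on the plus strand of chromosome 7, with Cyp2b10 at chr7:25897620-25926624, Cyp2b13 at chr7:26061497-26096197 and Cyp2b9 at chr7:26173411-26210661. Nr1i2 is at chr16:38248323-38294824 on the minus strand, and the other 4 genes are on the plus strand. Nr1i3 is at chr1:171213970-171220701, Por at chr5:135670033-135735326, Ces2a at chr8:104734003-104741634 and Abcb1a at chr5:8660077-8748575. All 8 are protein-coding genes.

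The promoters of the 3 Cyp2b genes are shown because Cyp2b10 behaved differently from Cyp2b9 and Cyp2b13, although the 3 are close relatives. Each is the RefSeq window of build GRCm38.p6 from 250 bases before to 50 bases after the start of the gene, on the plus strand, at chr7:26173159-26173458 for Cyp2b9, chr7:26061245-26061544 for Cyp2b13 and chr7:25897408-25897707 for Cyp2b10. In Cyp2b9 and Cyp2b13, capitals mark the 2 bases at which these windows differ, which are T48C and C104T with the base of Cyp2b9 first and positions counted from the left end of the window. In Cyp2b10, capitals mark the 77 bases that had no identical partner in the alignment with Cyp2b9.
Cyp2b9: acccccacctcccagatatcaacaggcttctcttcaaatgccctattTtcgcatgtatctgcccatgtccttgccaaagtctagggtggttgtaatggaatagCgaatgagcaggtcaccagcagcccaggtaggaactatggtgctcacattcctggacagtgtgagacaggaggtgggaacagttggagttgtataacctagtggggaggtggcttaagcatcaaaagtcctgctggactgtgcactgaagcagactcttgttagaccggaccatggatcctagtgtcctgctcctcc
Cyp2b13: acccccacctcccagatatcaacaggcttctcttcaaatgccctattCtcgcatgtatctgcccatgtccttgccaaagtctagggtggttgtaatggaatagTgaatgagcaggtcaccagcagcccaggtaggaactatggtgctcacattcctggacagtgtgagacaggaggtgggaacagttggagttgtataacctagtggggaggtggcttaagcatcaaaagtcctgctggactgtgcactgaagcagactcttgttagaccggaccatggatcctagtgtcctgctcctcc
Cyp2b10: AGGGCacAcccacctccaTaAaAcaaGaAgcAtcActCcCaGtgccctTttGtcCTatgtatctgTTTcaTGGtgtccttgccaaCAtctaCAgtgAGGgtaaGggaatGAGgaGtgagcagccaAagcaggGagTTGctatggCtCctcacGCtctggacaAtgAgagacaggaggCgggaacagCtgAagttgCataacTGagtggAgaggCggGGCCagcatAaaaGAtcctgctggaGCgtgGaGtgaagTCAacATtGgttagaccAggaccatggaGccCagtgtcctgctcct

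The windows of Cyp2b9 and Cyp2b13 were 99.3% identical, and that of Cyp2b10 was 71.7% identical to either. The hexamer AGGTCA, the core that CAR, PXR and other nuclear receptors bind, was searched on both strands. It occurred at position 113 of both the Cyp2b9 and the Cyp2b13 window, at position 25 of the Ces2a window and in none of the other 5, against 16.3% of all 32851 RefSeq promoter windows of this length. A direct repeat of it with 4 bases between, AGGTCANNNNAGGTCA, was found in no member and in 0.0152% of the windows, and the STAT-type motif TTCNNNGAA in no member and 8.30% of the windows. The windows of Por (chr5:135688895-135689194, inside the gene) and Abcb1a (chr5:8566841-8567140, upstream of it) do not sit at the GENCODE starts given above. The matches describe letters within 300 bases only, and the known CAR-responsive enhancer of Cyp2b10 lies farther upstream than the window reaches.

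Some members share sequence with other genes, which can move reads between them. Of the 50-base stretches of the main transcript, 27.3% in Cyp2b13, 11.2% in Cyp2b9 and 10.2% in Cyp2b10 also occurred in another gene, mostly in each other or in the predicted gene Gm45225. Whole transcripts of Cyp2b9 and Cyp2b13 were 89.2% identical. The share was 47.8% in Nr1i3, all of it with Tomm40l, whose exons overlap those of Nr1i3 on the opposite strand, and the strand setting of the count was not given in the sources used here. It was 22.2% in Ces2a, mostly with Gm7208, 18.6% in Abcb1a, mostly with Abcb1b, and 0% in Nr1i2 and Por.

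The libraries held 5993619 to 15290835 reads, with 7211612 ± 1976918 (SD, n = 6) in GF and 11809689 ± 2786158 (SD, n = 6) in CV, so values of low genes are less precise in GF. The mitochondrial ribosomal RNA genes took 9.36% to 16.4% of the reads in GF and 1.39% to 6.32% in CV. Together with Lars2, Mir6236, Gm23935, Gm15564 and Gm42418 they form 7 abundant loci. These took 55.2% ± 12.1 of all reads in GF and 11.6% ± 7.81 in CV (SD, n = 6). Outside these loci 3295847 ± 1411180 reads were left in GF and 10588224 ± 3246303 in CV (SD, n = 6), a wider gap than in all reads. Some alternatives below rescaled each library to its reads outside these loci or to all its reads. The summed hepatocyte markers (9 of 10 in the table, none at 0) ranged from 111371 to 473499 normalised reads in GF and from 394161 to 708691 in CV. Summed lymphocyte markers (5 of 6 in the table, none at 0) ranged from 309 to 580 in GF and from 70.3 to 154 in CV. Those of liver sinusoidal endothelium (6 of 6, none at 0) ranged from 1139 to 2613 in GF and from 558 to 1469 in CV, and those of exocrine pancreas (5 of 6) from 0 to 3.99 in GF and from 4.68 to 16.1 in CV. Most of the endothelial shift lay in Stab2, with 455 to 1553 in GF and 117 to 374 in CV. Bmp2 had 123 to 199 in GF and 29.1 to 118 in CV, and the ranges of Clec4g, Lyve1, Fcgr2b and Oit3 overlapped between conditions. In bulk tissue, fewer cells of a type and less RNA per cell cannot be told apart, and the part of these shifts in the results below was not tested. The library labelled CV male 3 had 2382 normalised reads of Xist and 0 of 8890529 reads on 4 Y-linked genes, which allows a share of up to 3.37e-05%. The other 5 libraries labelled male had at most 21.3 of Xist and 796 to 1314 Y-linked reads. The libraries labelled female had at least 1045 of Xist and at most 1 Y-linked read. The library labelled CV male 3 thus carried the sex markers of a female, against its label, and male results from all 12 libraries include it. The male comparisons of the members are therefore given from all 12 libraries and from the 11 libraries that remain when the one labelled CV male 3 is left out.

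Across the 8 genes, Cyp2b10, Por and Ces2a rose in CV livers of both sexes. Nr1i2 was lower in CV in both sexes, by 0.66 in males and 0.53 in females on the log2 scale. It passed the test in males only, near the threshold. In limma on log2(normalised reads + 1), 3 members rose and 1 fell in males at an adjusted p under 0.05, against 14.1% of the 11782 genes tested called higher, 15.4% called lower and 29.5% in either direction. In females 3 members rose and none fell, against 29.8% called higher, 26% called lower and 55.8% in either direction. The 4 of 8 members called in males were a larger share than that of all genes called in either direction, and the 3 of 8 called in females a smaller one. The median difference of the 8 genes was 1.08 in males and 0.66 in females, where the median of all genes tested was 0.06 and 0.08. From the 11 libraries, the members' median in males was 0.49. Again 3 rose and 1 fell, against 12.1% higher, 13.1% lower and 25.2% in either direction, but the member that fell was then Cyp2b13 and not Nr1i2. The call of Cyp2b13 rests on 3 to 7 reads per GF male library against 0 in CV. Cyp2b13 passed the filter on low values only through libraries with female levels. Over both sexes 5 members passed, against 61.1% of all genes. With the mitochondrial rRNA share as a covariate no member passed in either sex, and 3 of all genes passed in males and 0 in females. That share did not overlap between the conditions, so the 2 cannot be told apart in this design.

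**Figure D1:**
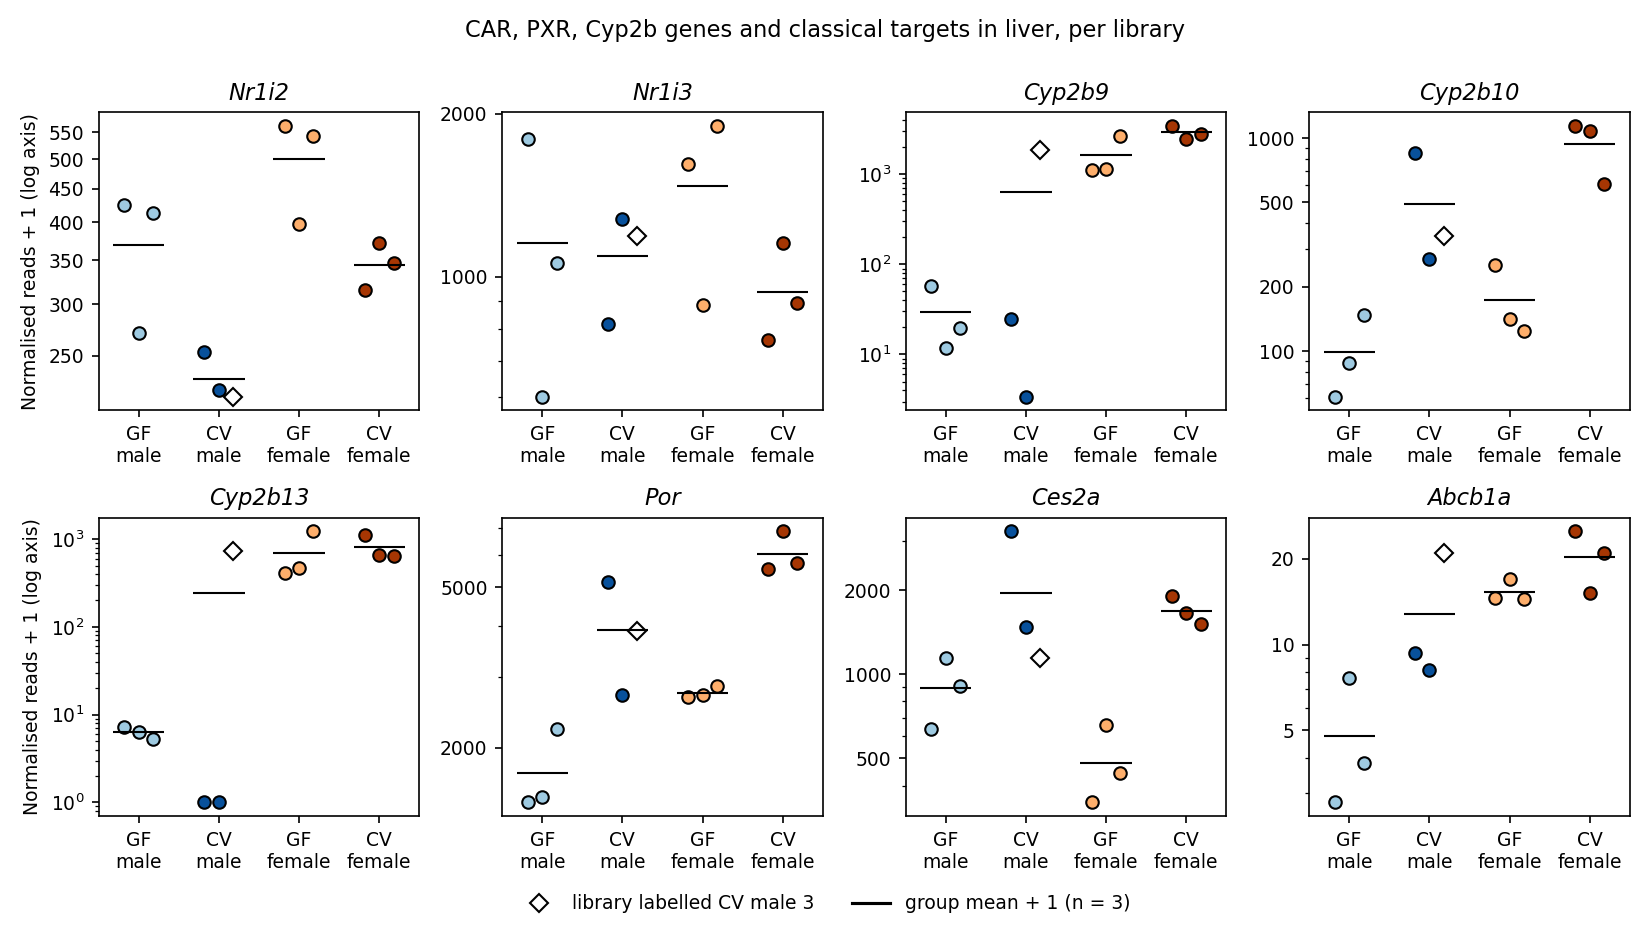
Normalised reads plus 1 of the 8 genes in each library, on log axes, by group. Points are libraries, bars are group means (n = 3) and the open diamond is the library labelled CV male 3, which sat with the female libraries for Cyp2b9 (1862) and Cyp2b13 (733) while Cyp2b10 was higher in every CV library than in the GF libraries of its sex.

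PXR itself was lower in CV livers. Nr1i2 had 424, 270 and 412 normalised reads in GF males and 252, 220 and 215 in CV males. It had 562, 396 and 541 in GF females and 314, 371 and 346 in CV females. In neither sex did the groups overlap, as was the case for 43% of all genes in males and 64.9% in females. The log2 difference was −0.66 ± 0.24 (SE) in males, with a limma adjusted p of 0.0470, and −0.53 ± 0.24 in females, where the adjusted p was 0.0709. The call in males was near the threshold. From the 11 libraries the difference was −0.62 with an adjusted p of 0.112, and 9 of the 12 fits that each left out 1 library did not call it. The libraries concerned were GF male 1 and 3, GF female 1 and all 6 CV libraries. Averaged over both sexes Nr1i2 fell by 0.59 (adjusted p = 0.00624) and stayed called in all 12 of those fits. Scaling to all reads took that call away, as did the mitochondrial rRNA covariate. In females Nr1i2 passed in 9 of 28 alternatives, with a lower value in CV in each, edgeR (−0.62) and DESeq2 (−0.61) among them.

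CAR did not pass the test in either sex. Nr1i3 had 1798, 599 and 1057 normalised reads in GF males and 815, 1275 and 1187 in CV males. It had 1614, 886 and 1900 in GF females and 763, 1153 and 891 in CV females. The GF libraries spanned a wider range than the CV libraries, and the groups overlapped in both sexes. The log2 difference was 0.04 in males (95% interval −0.74 to 0.82, limma adjusted p = 0.948) and −0.60 in females (−1.38 to 0.18, adjusted p = 0.177). Leaving out the library GF female 2, the lowest of its group, gave −0.92 in females with an adjusted p of 0.0446. Scaled to reads outside the abundant loci it was −1.22 in females and was called (adjusted p = 0.0319). With 11 libraries the difference in males was −0.03 (adjusted p = 0.958).

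Cyp2b10, a cytochrome P450 that oxidizes drugs and steroids, showed the largest difference among the members in both sexes in the limma test of all libraries. It had 60.0, 86.5 and 146 normalised reads in GF males and 850, 270 and 344 in CV males. In females it had 254, 141 and 123 in GF and 1144, 1075 and 606 in CV. The lowest CV library lay above the highest GF library of its sex. The ratio of the means was 5.01 in males, 5.74 in males without the library labelled CV male 3, and 5.46 in females. On the log2 scale Cyp2b10 rose by 2.22 ± 0.42 in males (limma adjusted p = 0.00215) and by 2.46 ± 0.42 in females (adjusted p = 1.70e-04). With 11 libraries the rise in males was 2.38 (adjusted p = 0.00325), and Cyp2b10 was called in both sexes in 27 of 28 alternatives, all but the fit with the mitochondrial rRNA share. The difference between the sexes in this change was 0.24 (95% interval −1.02 to 1.50).

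**Figure D2:**
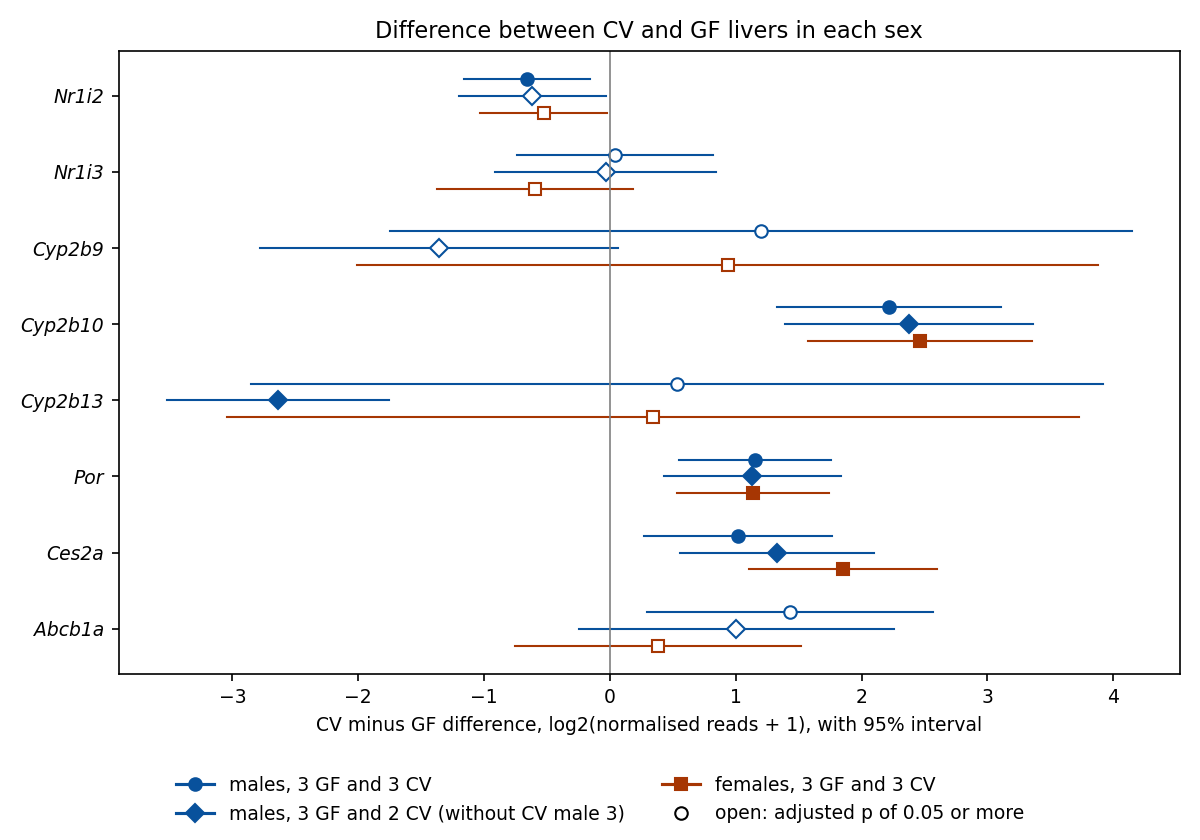
Difference between CV and GF livers of each of the 8 genes on the log2(normalised reads + 1) scale, with 95% intervals from limma. Circles are males with all 6 libraries, diamonds are males without the library labelled CV male 3 and squares are females; filled symbols had an adjusted p under 0.05, and Cyp2b10 stood at 2.22, 2.38 and 2.46.

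Cyp2b9 and Cyp2b13, P450 relatives of Cyp2b10, separated the sexes, and neither passed the test between conditions when all 12 libraries were used. Cyp2b9 had 1122, 1154 and 2670 normalised reads in GF females and 3470, 2488 and 2811 in CV females. In males it had 56.4, 10.6 and 18.4 in GF and 23.9, 2.39 and 1862 in CV. Only the library labelled CV male 3 among those labelled male reached the female range. Cyp2b13 had 406, 468 and 1229 in GF females, 1112, 659 and 648 in CV females, 6.27, 5.32 and 4.25 in GF males, and 0, 0 and 733 in CV males. The same library again stood with the females, and the 2 other CV male libraries had no read of Cyp2b13.

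In GF livers females had 57.9 times the mean of males for Cyp2b9 and 133 times for Cyp2b13. The male minus female difference in GF was −6.01 ± 1.39 on the log2 scale for Cyp2b9 (limma adjusted p = 0.0413) and −6.63 ± 1.60 for Cyp2b13 (adjusted p = 0.0475), the only members called there, against 1.63% of all genes. The SE included the library labelled CV male 3 through the shared estimate of the spread. Of 28 alternatives 12 lost the call of Cyp2b9 and 17 that of Cyp2b13, edgeR and voom on all libraries among them, and of the 12 fits without 1 library 5 and 4 kept it. In the fit of 11 libraries the same differences had adjusted p-values of 7.17e-06 and 4.91e-09. In CV livers no member passed the test between the sexes, against 0.0594% of all genes, with −5.75 (adjusted p = 0.326) for Cyp2b9 and −6.44 (adjusted p = 0.361) for Cyp2b13. With 11 libraries both passed, against 0.654% of all genes, at −8.30 (adjusted p = 4.95e-07) and −9.61 (adjusted p = 4.41e-10). Females then had 222 times the mean of the remaining 2 males for Cyp2b9, and were at least 409-fold higher for Cyp2b13, with the males set at 3 reads per library.

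Between CV and GF females neither gene passed. The difference was 0.94 for Cyp2b9 (95% interval −2.01 to 3.88, limma adjusted p = 0.586) and 0.34 for Cyp2b13 (−3.05 to 3.73, adjusted p = 0.869). In the fit of 11 libraries these intervals narrowed to −0.34 to 2.21 and −0.45 to 1.13. In males the differences were 1.20 (adjusted p = 0.540) and 0.54 (adjusted p = 0.824) with all libraries, and both turned negative with 11 libraries. Cyp2b9 was then at −1.36 (adjusted p = 0.147). Cyp2b13 fell by 2.64 (adjusted p = 0.00135), from 3 to 7 reads per GF library to 0 reads in both CV libraries, and the groups did not overlap, as for 50.7% of all genes. With the CV males set at 3 reads per library, the GF male mean of Cyp2b13 was 2.68 times theirs. That ratio takes no account of counting error in the GF males. These few reads fall in a gene that shares 27.3% of its 50-base stretches with others. Its mean in GF males, 5.28, was under the mean of 10 required for testing, which Cyp2b13 passed only through libraries with female levels. The 2 CV zeros have no spread, so the SE of this fall came mainly from other groups. Its p-value therefore does not measure counting error at 3 to 7 reads. When the library CV male 2 was left out instead, Cyp2b9 passed in the opposite direction (3.20, adjusted p = 0.0466). The count tests edgeR and DESeq2 on all libraries called Cyp2b9 higher in CV males, by 4.34 and 4.44, and edgeR also called Cyp2b13 higher, by 5.40. On the 11 libraries edgeR gave −1.15 (adjusted p = 0.215) for Cyp2b9 and −5.72 (adjusted p = 0.0117) for Cyp2b13.

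**Figure D3:**
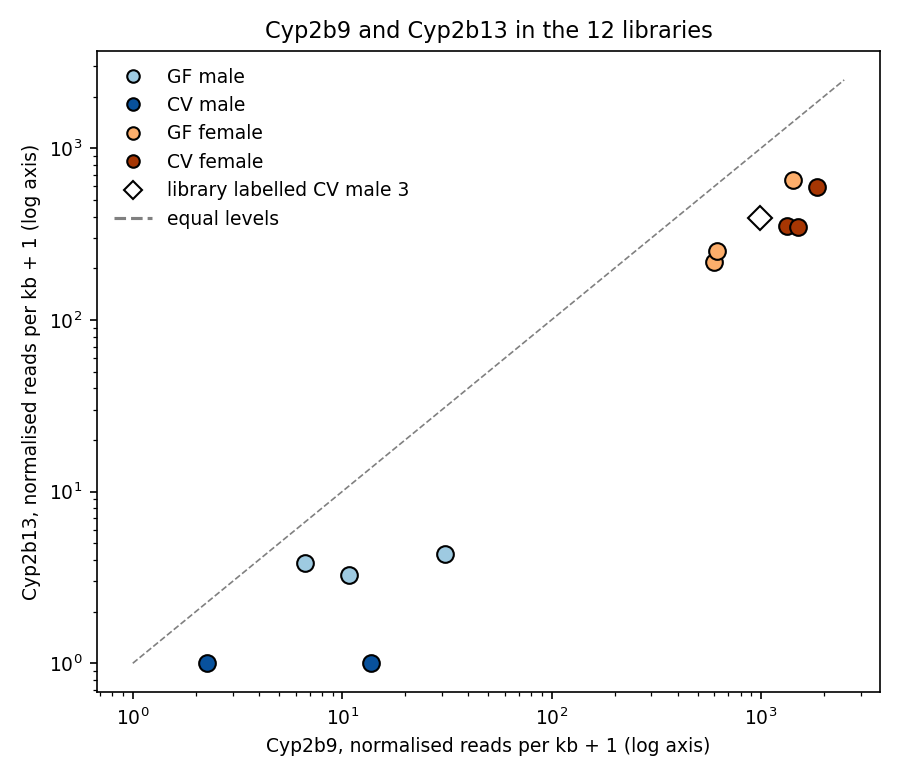
Cyp2b13 against Cyp2b9 in the 12 libraries, as normalised reads per kb of exon plus 1 on log axes. The 6 female libraries and the library labelled CV male 3 lie at the upper right with Cyp2b9 above Cyp2b13, at 598 to 1850 and 217 to 655 per kb, and the other male libraries lie at the lower left, at no more than 30.1 and 3.34 per kb.

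Cyp2b9 was the more abundant of the pair per length. Cyp2b13 made up 29.0% ± 2.47 (SD, n = 3) of their summed level per kb in GF females. In CV females it made up 21.3% ± 2.78 (SD, n = 3). The GF libraries ranged from 26.6% to 31.5% and the CV libraries from 18.8% to 24.3%, without overlap. The exact two-sided permutation test gave p = 0.1, which is the smallest value that 3 against 3 libraries allow. In the library labelled CV male 3 the share was 28.3%.

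Por, Ces2a and Abcb1a belong to the steps around the P450 enzymes. Por encodes the reductase that passes electrons from NADPH to every microsomal P450. It had 1465, 1512 and 2232 normalised reads in GF males and 5159, 2701 and 3903 in CV males. In females it had 2672, 2703 and 2850 in GF and 5557, 6880 and 5734 in CV. The groups did not overlap in either sex, and the GF females were close to one another. Por rose by 1.15 ± 0.29 in males (limma adjusted p = 0.00870) and by 1.14 ± 0.29 in females (adjusted p = 0.00312), 2.26 and 2.21 times by the means. From the 11 libraries the rise in males was 1.13 (adjusted p = 0.0224). Scaling to reads outside the abundant loci took away the call in females. The difference between the sexes in this change was −0.02 (95% interval −0.87 to 0.84).

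Ces2a encodes a carboxylesterase, an enzyme that splits ester drugs and acylglycerols. It had 635, 1142 and 908 normalised reads in GF males and 3252, 1473 and 1141 in CV males. In females it had 347, 657 and 443 in GF and 1906, 1651 and 1510 in CV. The female groups were apart, and in males the library labelled CV male 3 lay just under the highest GF library. Ces2a rose by 1.85 ± 0.35 in females (limma adjusted p = 4.13e-04) and by 1.02 ± 0.35 in males (adjusted p = 0.0405). The call in males held in 16 of 28 alternatives and was lost in 6 of the 12 fits that left out 1 library, those without GF male 1 or 3, CV male 1 or any CV female. Without CV male 1, the highest library, the difference was 0.57 (adjusted p = 0.182), and without CV male 3 the value was 1.33 (adjusted p = 0.0163). The change in females exceeded that in males by 0.83 (95% interval −0.23 to 1.89), which did not pass the test.

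Abcb1a encodes a P-glycoprotein, which pumps drugs out of cells, and was close to the limit of detection, with 2 to 57 reads per library. It had 1.79, 6.65 and 2.83 normalised reads in GF males and 8.33, 7.16 and 20.0 in CV males. In females it had 13.6, 16.0 and 13.4 in GF and 24.0, 14.1 and 19.9 in CV. The male groups did not overlap and the female groups did. The difference was 1.43 ± 0.54 in males (limma adjusted p = 0.0551) and 0.38 ± 0.54 in females (adjusted p = 0.565). The value in males lay near the threshold and passed in 4 of 27 alternatives, which were DESeq2, scaling to all reads and the fits without GF male 2 (adjusted p = 0.0225) or CV male 2 (adjusted p = 0.0466). With 11 libraries it was 1.01 (adjusted p = 0.221). Over both sexes Abcb1a rose by 0.90 (adjusted p = 0.0488). That call was lost in 9 of the 12 fits that left out 1 library, and the fits that kept it lacked GF male 2, CV male 1 or CV male 2. From the 11 libraries the difference over both sexes was 0.69 (adjusted p = 0.143).

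No member's change with colonization differed between the sexes at an adjusted p under 0.05. The limma interaction test called 0% of all genes, with 1382 genes and none of the 8 members at an unadjusted p under 0.05. Without the library CV male 1 it called 291 genes, with 3036 at an unadjusted p under 0.05, and no member. With 11 libraries, the interaction of Cyp2b13 was 2.98 (unadjusted p = 5.89e-05, adjusted p = 0.116) and that of Cyp2b9 was 2.29 (adjusted p = 0.620). The count test edgeR called no member for the interaction on 12 or on 11 libraries.

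The order of the members by level per kb of exon differed between groups. In CV females Cyp2b9 (1558 ± 267, SD, n = 3) and Por (1506 ± 179) were highest and overlapped, followed by Ces2a (716 ± 85.1). Below them came Cyp2b10 (446 ± 138) and Cyp2b13 (430 ± 141), whose libraries overlapped, then Nr1i3 (212 ± 45.0), Nr1i2 (135 ± 11.1) and Abcb1a (3.52 ± 0.905), each apart from its neighbours. In GF females Cyp2b9 (879 ± 472) and Por (682 ± 23.7) again led and overlapped. Cyp2b10 (81.6 ± 33.6) there lay below every member but Abcb1a (2.61 ± 0.259), with no overlap. In GF males Por (432 ± 107), Ces2a (379 ± 108) and Nr1i3 (261 ± 137) overlapped in a row at the top. Nr1i2 (145 ± 33.6) overlapped Nr1i3 in turn, and Cyp2b10 (46.2 ± 20.8), Cyp2b9 (15.2 ± 13.1), Cyp2b13 (2.82 ± 0.538) and Abcb1a (0.686 ± 0.467) followed, of which Cyp2b10 and Cyp2b9 overlapped. In the CV males other than the library labelled CV male 3, Cyp2b10 was at 403 and 128 per kb, and Cyp2b9 at 12.8 and 1.27. The length is that of all exons of a gene, which for Nr1i3 includes long alternative exons and lowers its level. It was 4414 bases for Nr1i3, whose main transcript has 1414, and 4021 for Por, whose main transcript has 2636. For Ces2a it was 2359 against 1960, for Cyp2b10 2112 against 1822 and for Abcb1a 5480 against 4997, but for Cyp2b9 1876 in both. The longer divisors lower Por and these others relative to Cyp2b9, so the order holds for this length only.

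The genes whose log2 values ran most alike across the 12 libraries differed between members. For Cyp2b9 they were Cyp2b13 (Pearson r = 0.973), Cyp2a4 (0.970) and Slc22a26 (0.969). For Cyp2b13 they were Cyp2b9, Sult2a2 (0.962) and Slc22a26 (0.959). Cyp2b10 ran most like Plin5 (0.971), Dlat and Rrm2 (both 0.963). Por ran most like As3mt (0.971), Sigirr (0.966) and Tcn2 (0.961), and Ces2a most like Entpd5, Ugt2a3 (both 0.988) and Lap3 (0.986). For the receptors the highest values were 0.930 for Nr1i2, with Ulk1, and 0.933 for Nr1i3, with Crybg2, and Abcb1a reached 0.936 with Cyp39a1. Over the 11 libraries the nearest gene was the same for Nr1i3, Cyp2b9, Cyp2b13, Por and Abcb1a, and was Trim80 for Nr1i2, Cdk5rap3 for Cyp2b10 and Ugt2a3 for Ces2a. These correlations describe libraries that share group, depth and composition, and each is the highest among all genes with a name.

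The wider pathway was read from lists of 81 further genes, each set against the 14.1% higher and 15.4% lower of all genes in males and the 29.8% higher and 26% lower in females. Of 16 tested partners and coregulators with which CAR and PXR act, 2 rose and 5 fell in males and 3 rose and 7 fell in females. Ppargc1a, a coactivator of fasting metabolism, fell by 1.94 in males (limma adjusted p = 6.06e-04) and fell by 2.77 in females (adjusted p = 6.33e-06). Cebpa, a transcription factor of mature hepatocytes, rose by 1.30 in males (adjusted p = 0.00387) and by 1.79 in females (adjusted p = 7.87e-05). The direction of this list depended on the scaling, since values scaled to all reads gave 2 higher and 2 lower in males and 7 higher and 2 lower in females. With the trend of each library on exon length removed, 1 rose and 2 fell in males, and 3 rose and 3 fell in females. The list's median was −0.08 in males and −0.17 in females. The share called in either direction was above the 29.5% of all genes in males and close to the 55.8% in females.

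Among 10 genes for the retention of CAR in the cytoplasm and its release, 2 rose and 1 fell in males, and 3 rose in females, with medians of 0.17 and 0.53. Ppp2ca and Ppp2r1a, subunits of the phosphatase PP2A that acts on CAR, rose in both sexes. Ppp2ca rose by 0.85 in males (limma adjusted p = 0.0332) and 1.61 in females (adjusted p = 2.05e-04), and Ppp2r1a by 0.79 (adjusted p = 0.0350) and 1.49 (adjusted p = 2.26e-04). Egfr, the growth factor receptor whose signal keeps CAR inactive, fell by 1.30 in males (adjusted p = 0.0384) and had a difference of −0.87 in females (adjusted p = 0.106). With 11 libraries the call of Egfr in males was lost (−0.95, adjusted p = 0.148). The share of the list called was close to the 29.5% of all genes in males and below the 55.8% in females. With values scaled to reads outside the abundant loci, the list had 0 higher and 1 lower in males and 2 higher and 3 lower in females.

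Of 7 tested genes that supply electrons or heme to P450 enzymes, the group to which Por belongs, 1 rose in males and 6 rose in females, and none fell. That share was below the 29.5% of all genes called in males and above the 55.8% in females. The medians were 0.75 and 1.53. Cyb5a and Cyb5b, the cytochromes b5, rose in females by 1.94 (limma adjusted p = 4.93e-04) and 1.53 (adjusted p = 0.00116), and had differences of 0.68 (adjusted p = 0.183) and 0.76 (adjusted p = 0.0971) in males. Pgrmc1, a heme-binding partner of P450s, rose by 1.19 in males (adjusted p = 0.0219) and by 1.82 in females (adjusted p = 5.41e-04). The gene not called in either sex was Alas1, the first enzyme of heme synthesis and itself a CAR target, with −0.56 in males (adjusted p = 0.346) and −0.49 in females (adjusted p = 0.344). It was chosen for mention after its values were seen. With values scaled to reads outside the abundant loci, 4 rose and 1 fell in females.

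Of 18 tested targets of CAR or PXR other than the members and the Cyp3a genes, 3 rose and none fell in males, and 7 rose and 3 fell in females. Ugt1a1, which conjugates bilirubin, rose by 1.92 in males (limma adjusted p = 0.00274) and by 2.52 in females (adjusted p = 6.42e-05). Thrsp, a lipogenic gene, rose by 1.56 (adjusted p = 0.0462) and 1.70 (adjusted p = 0.0167), and Cidec, a lipid droplet gene, rose by 1.97 in females (adjusted p = 0.00420) with a difference of 0.70 in males (adjusted p = 0.318). The 3 that fell in females were the transporters Abcc2, Abcc4 and Slco1a4. Scaled to reads outside the abundant loci, 1 rose and 1 fell in males and 2 rose and 4 fell in females, and with the length trend removed 1 rose in males and 3 rose and 2 fell in females. The list's median was 0.49 in males and 0.72 in females. The share called in either direction was below the 29.5% of all genes in males and close to the 55.8% in females.

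Of 11 tested carboxylesterase relatives of Ces2a, 5 rose in males and 9 in females, and none fell, shares above the 29.5% and 55.8% of all genes called in either direction. The medians were 0.87 and 1.45. Ces1d rose by 2.20 in males (limma adjusted p = 8.82e-04) and by 2.56 in females (adjusted p = 2.82e-05). Ces2e, a close relative of Ces2a, rose by 1.66 (adjusted p = 0.0124) and by 2.95 (adjusted p = 5.95e-05). Ces2c rose by 3.00 in females (adjusted p = 0.00254) and had a difference of 0.63 in males (adjusted p = 0.542), and its interaction was not called (adjusted p = 0.424). None fell when values were scaled to all reads, to reads outside the abundant loci or by the upper quartile, and 3 to 6 rose in males and 6 to 11 in females. With the length trend removed, 4 rose in males and 5 in females. Without GF male 1 or CV male 1 only 1 rose in males, and without GF male 3 it was 2.

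Of 6 tested exporters related to Abcb1a, none rose and 2 fell in males, and 1 rose and 2 fell in females. Abcc5 fell by 1.65 in males (limma adjusted p = 0.00716) and fell by 2.20 in females (adjusted p = 2.57e-04). Abcc6 fell by 1.06 (adjusted p = 0.0292) and fell by 1.22 (adjusted p = 0.00613). Abcb4, the phospholipid exporter of bile, rose by 0.62 in females (adjusted p = 0.0487) and had a difference of 0.40 in males (adjusted p = 0.253). The medians were −0.66 and −0.72, and the shares called were close to the 29.5% and 55.8% of all genes. Scaled to all reads, 2 rose and 1 fell in females.

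Among 7 regulators of sex-biased liver genes, which bear on Cyp2b9 and Cyp2b13, none passed in males, and 1 rose and 2 fell in females. Onecut1, a hepatocyte transcription factor, fell by 2.16 in females (limma adjusted p = 0.00361) and Trim24 fell by 1.62 (adjusted p = 0.00182), while Ghr, the growth hormone receptor, rose by 0.88 (adjusted p = 0.0176). In males the differences were −1.37 (adjusted p = 0.0722), −0.25 (adjusted p = 0.639) and 0.23 (adjusted p = 0.586). Both shares called were below the 29.5% and 55.8% of all genes. The list's medians were −0.20 and −1.09, and scaled to all reads 2 rose and 1 fell in females. From the 11 libraries 1 rose and 3 fell in females. Cux2 had the lowest difference of the list in females, −2.22, and was not called there with 12 libraries. It had 374, 489 and 533 normalised reads in GF females and 60.6, 128 and 123 in CV females. In CV males it had 0, 3.18 and, in the library labelled CV male 3, 62.7. Cux2 was chosen for mention after its values were seen. The 2 further Cyp2b genes were below the minimum mean of 10. Cyp2b23 was at 0 in all 12 libraries, and Cyp2b19 had at most 10.6 normalised reads, with reads in the 3 GF female libraries and in no other. With a minimum mean of 1 or no filter, Cyp2b19 was called lower in CV females, at −2.52. Its GF female values were 4.53, 10.6 and 1.92, where a single read was worth 1.51, 2.66 and 1.92, so that call rests on very few reads. From the 11 libraries the counts in males were 1 higher and 4 lower for the partners and coregulators, 2 and 0 for CAR retention and release, 2 and 0 for electrons and heme, 3 and 0 for the other targets, 5 and 0 for the carboxylesterases, 0 and 1 for the exporters and 0 and 1 for the regulators of sex-biased genes. Among the list genes named above, Egfr and Abcc6 (−0.87, adjusted p = 0.0968) lost their male call there, and the others called in males kept theirs.

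**Figure D4:**
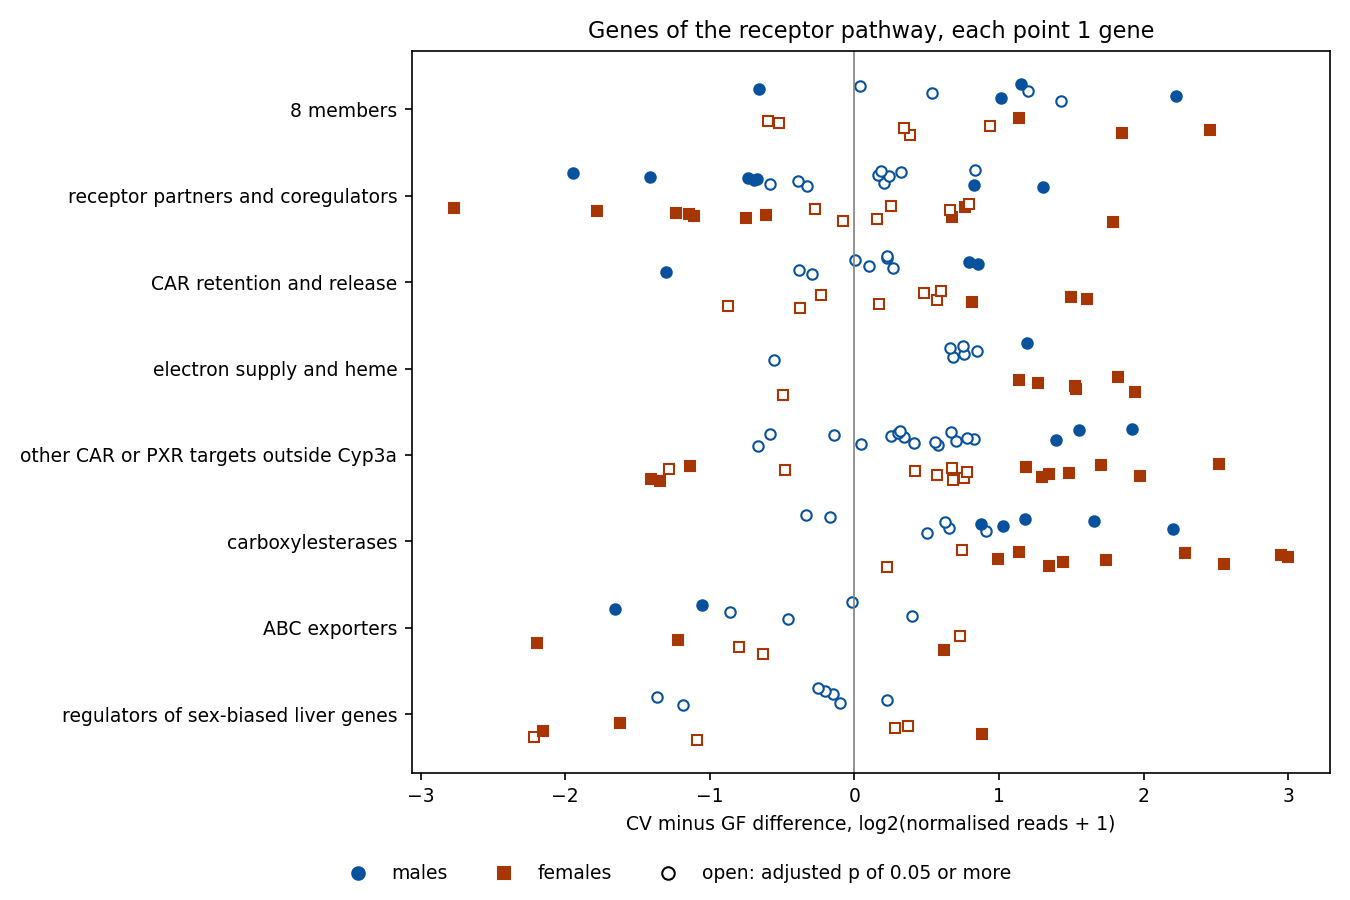
CV minus GF difference of each tested gene on the log2(normalised reads + 1) scale, for the 8 members and 7 further lists. Circles are males, squares are females and filled symbols had a limma adjusted p under 0.05; carboxylesterases reached 3.00 in females and none of them fell, while receptor partners and coregulators ranged from −2.77 to 1.79 there.

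Scaling moved the centre of all genes and with it the smaller differences. The median of all genes, 0.06 in males and 0.08 in females as deposited, became 0.37 and 0.86 when values were scaled to all reads, and −0.23 and −0.53 when they were scaled to reads outside the abundant loci. The calls over all genes split into 1660 higher and 1814 lower in males as deposited, 2823 and 788 scaled to all reads, and 875 and 2244 scaled to reads outside the abundant loci. In females the splits were 3512 and 3060, 5832 and 1119, and 1858 and 4649. Cyp2b10 rose in both sexes under each of these scalings, by 1.92 to 2.53 in males and 1.84 to 3.27 in females, whereas Nr1i2 in females moved from −1.14 to 0.28 between them.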

How the data were processed

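Livers of 12 mice were profiled, 3 in each group of condition and labelled sex, with groups and replicate numbers taken from the sample titles. The deposited table held a normalised signal per gene, for which the authors divided the reads of each gene by 1 size factor per library. The submitters' processing notes name HTSeq 0.6.1p1, DESeq2 and GRCm38. The aligner, the annotation and the strand setting were not given in the sources used here. Within a tolerance of 0.01 reads, 100% of the values in each library equalled a whole number of reads once divided by the value of a single read, and reads were recovered in that way.

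The main test was limma 3.58.1 in R 4.3.3 on log2(value + 1), a scale that understates the change of low genes. All 12 libraries entered 1 fit with a mean per group, a variance trend and Benjamini-Hochberg adjustment over the 11782 genes of mean value 10 or more, at a threshold of 0.05. Gene positions and exon lengths came from GENCODE release M21, which listed 97.9% of the rows, and RefSeq held promoters of all 8 members. Identities were computed with Biopython 1.88.

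All 8 members were named. From each further list the 3 called genes with the largest change in either sex were named, and for each member the 3 genes with the highest correlation. Among the genes so chosen, 1 is not reported here. Members and lists were chosen with earlier results of these data known. Alternatives were other pseudocounts, filters, scalings and thresholds, edgeR 4.0.16 and DESeq2 1.42.0 on recovered reads, voom, a replicate block, the mitochondrial rRNA share as covariate, removal of a trend on length, and each library left out. The edgeR test on 11 libraries was chosen after seeing the data. The labels tie no library to a litter or batch, so p-values measure the spread between these mice only. Counts at 0 and their limits of 3 reads cover counting error only. The limma test was also run on counts simulated from the mean values of these genes, without the shift in composition between conditions. Same-numbered libraries were not treated as pairs between conditions, where their deviations correlated at −0.23 to 0.02. Only between CV males and CV females was every correlation over 0.1 (0.12 to 0.19).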

Additional observations from a re-analysis of the deposited data

Results flagged for a closer look

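Of the 16 sets of 6 libraries checked (8 members in GF and in CV), 1 held a library far from the others by Dixon's criterion, a rate close to the 1 in 20 that chance gives. Ces2a had 3252 normalised reads in the library CV male 1, and its gap to the next CV library was 0.638 of the range of the 6. That library also had the largest CV value of Cyp2b10 and Por among the libraries labelled male, at 850 and 5159.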

How the results depend on the processing

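The 8 members gave 860 values under 27 other settings (26 for Abcb1a), without the threshold of 0.01. Of these, 752 kept direction and side of the threshold, 54 lost a call, 25 gained one and 29 changed sign. For the other named genes these were 990, 107, 17 and 18 of 1132. The cause of a change was not tested where none is given. The number of members called in males (4) became 2 without a filter on low values, 2 at a threshold of 0.01, 6 with edgeR and 6 with DESeq2, and ranged from 2 to 5 when 1 library was left out. In females (3) it then ranged from 3 to 5, and over both sexes (5) from 4 to 6, where edgeR called 7 and DESeq2 6. With the mitochondrial rRNA share as covariate it was 0 in males, 0 in females, 0 over both sexes and 0 between the sexes in GF. Between the sexes in GF (2) it was 1 with a pseudocount of 0.5, 1 scaled to reads outside the abundant loci, 1 with upper-quartile scaling, 1 with DESeq2, 3 scaled to all reads (Ces2a gained, adjusted p = 0.0221), and 0 without a filter, 0 with edgeR, 0 with voom, 0 at a threshold of 0.01 and 0 to 2 with 1 library left out. Between the sexes in CV (0) it was 1 with voom, 2 with edgeR on 11 libraries, and 0 to 2 with 1 library left out.

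Signs changed as follows. With the mitochondrial rRNA share as covariate, log2 differences in females became 0.42 for Nr1i3, −0.92 for Cyp2b10, −0.45 for Por, −0.79 for Ces2a, −2.24 for Ces2c, −0.067 for Ces2e, −0.13 for Cyb5b, −0.71 for Ghr, −0.55 for Thrsp, 0.82 for Trim24 and −1.02 for Ugt1a1. In males they became −0.11 for Ces2a, −1.62 for Ces2c, −0.46 for Ghr and 0.79 for Trim24, and between the sexes −0.0003 for Nr1i3 in CV and −0.044 for Ces2a in GF. Scaled to all reads, Nr1i2 and Nr1i3 in females were 0.28 and 0.21, Trim24 in males 0.056 and Ces2a between the sexes in CV −0.086. Scaled to reads outside the abundant loci, Nr1i3 in males was −0.26, Ghr in males −0.074, and Cyp2b13 and Abcb1a in females −0.28 and −0.20. Nr1i3 in males was −0.035 with upper-quartile scaling, −0.14 with edgeR, −0.10 with DESeq2 and −0.20 with edgeR on 11 libraries. With the length trend removed, Cyp2b13 and Egfr in females were −0.36 and 0.002, and Trim24 in males 0.10. Cyp2b13 in males was −0.01 with a pseudocount of 0.5, −1.17 with voom and −5.72 with edgeR on 11 libraries, where Cyp2b9 was −1.15. Leaving out 1 library gave −0.36 to 0.43 for Nr1i3, −1.36 to 3.20 for Cyp2b9, −2.64 to 2.12 for Cyp2b13, −0.23 to 1.48 for Ces2c, −0.069 to 0.43 for Ghr and −0.76 to 0.07 for Trim24, all in males, and −0.37 to 0.38 for Ces2a between the sexes in CV.

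With the replicate number as a replicate block, 4 members were called in males, 3 in females, 4 over both sexes (Abcb1a lost), 2 between the sexes in GF and 0 in CV, and the block changed no other of these calls. In CV, where the numbers may pair the libraries, it called 8 genes in place of 7. The main limits are 3 mice a group, GF libraries of lower depth and a composition that moved with condition. Nr1i3 in females passed in 2 of 28 alternatives and Abcb1a in males, at 2 to 57 reads per library, in 4 of 27. Where a group is left with 2 libraries, its spread is taken from the other groups.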
